A study of Canis lupus familiaris with 34 samples.

Results

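The CRIP, CSRP and FHL genes encode small proteins built largely from LIM domains, and 10 of them were followed in mitral valve RNA: CRIP1, CRIP2, CRIP3, CSRP1, CSRP2, CSRP3, FHL1, FHL2, FHL3 and FHL5. They were taken by symbol from the deposited count table, where they are 10 of 23768 features and 10 of the 19568 that reached 100 counts over all dogs. The genes were picked with the result for CRIP1 in congestive heart failure (CHF) already known, so their CHF differences are given as a description with no p-value. The samples were mitral valves of 34 privately owned Cavalier King Charles Spaniels of about 10 years, excised after euthanasia. Of these, 19 dogs (10 females and 9 males) had no CHF and are called 10y-noCHF, and 15 dogs (6 females and 9 males) had CHF due to myxomatous mitral valve disease (MMVD) and are called 10y-MMVD-CHF. No transgene or experimental treatment was used. The control group was mixed, since it held dogs with MMVD, severe in some of them, beside a dog free of identifiable heart disease, and CHF was diagnosed in part by the response to diuretics.

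A LIM domain is a pair of zinc-binding fingers that holds other proteins together. The CSRP proteins bind alpha-actinin and zyxin on actin filaments, and they can also act with serum response factor (SRF) in the nucleus, where SRF drives contractile genes. CSRP1 and CSRP2 are best known from smooth muscle and vessel walls, whereas CSRP3, the muscle LIM protein, belongs to the Z-disc of heart and slow skeletal muscle. FHL1 and FHL2 are abundant in striated muscle, FHL2 mainly in the heart. FHL3 binds actin in muscle cells, and FHL5 is a coactivator of the transcription factors CREM and CREB. The CRIP proteins are short LIM proteins, of which CRIP2 is expressed in heart and vessels.

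All positions are on canFam4. CRIP2 (chromosome 8, 73181821 to 73186955) and CRIP1 (chromosome 8, 73192788 to 73193840) are neighbours on the plus strand, 5832 bases apart. CRIP3 lies on chromosome 12 (11977381 to 11980103), CSRP1 on chromosome 7 (1536737 to 1548502), CSRP2 on chromosome 15 (19857887 to 19863080) and CSRP3 on chromosome 21 (41980118 to 41990385). FHL1 is on chromosome X (107493957 to 107557817), FHL2 on chromosome 10 (39096297 to 39119255), FHL3 on chromosome 15 (4654842 to 4662312) and FHL5 on chromosome 12 (55288989 to 55335003). Each of the 10 features is an alignment of a human gene counted over its whole span, introns included, and overlaps the canine RefSeq gene of the same symbol. Levels are therefore compared between dogs and not between genes. A feature for PACS2 covers the whole of CRIP2 and 91 bases (8.64%) of CRIP1, and counting was without strand and on every overlapping feature, so reads from PACS2 could be counted on CRIP2. LOC100128164 covers 98.7% of FHL1 and holds nearly the same reads (1478196 counts against 1478211), so it is not separate evidence.

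Total counts per dog, summed over features that can share reads, ranged from 46185256 to 82361245, so they are not numbers of reads. CAV1047 had the lowest total and the highest mean of cardiomyocyte markers, and CAV614 the highest mean of red blood cell markers. Both are 10y-MMVD-CHF, and values are also given without them. No test behind the choice of this pair is reported here. Markers of valve interstitial cells, the main cells of the leaflet, summed to 12600 to 30700 CPM (counts scaled to a common library size) in 10y-noCHF dogs and to 14400 to 29800 CPM in 10y-MMVD-CHF dogs. The 20 cardiomyocyte markers summed to 125 to 26500 CPM and to 103 to 54000 CPM, so some of them were counted in every sample, at widely varying levels. Of the 20 markers, 1 had no counts in at least 1 dog. Whether the lowest sums come from heart muscle was not tested. The mean log2 CPM of these markers was 5.64 ± 3.18 (SD, n = 19) in 10y-noCHF dogs and 5.97 ± 2.77 (SD, n = 15) in 10y-MMVD-CHF dogs. In RNA from whole tissue, fewer cells of a type and less RNA per cell cannot be told apart.

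Among the CRIP genes, CRIP1 stood at 107 to 237 CPM in 10y-noCHF dogs (median 170 CPM) and at 87.5 to 168 CPM in 10y-MMVD-CHF dogs (median 124 CPM). The groups overlapped, with 5 of 15 10y-MMVD-CHF dogs below the lowest 10y-noCHF dog and 11 of 19 10y-noCHF dogs above the highest 10y-MMVD-CHF dog. The lower level was seen in both sexes, with medians of 105 CPM against 146 CPM in females and 131 CPM against 171 CPM in males. The log2 fold change with sex in the fit was -0.43 (approximate SE 0.093), and it was -0.42 (SE 0.146) in females alone and -0.44 (SE 0.117) in males alone. Without CAV1047 and CAV614 it was -0.38 (SE 0.0943), and CRIP1 was no longer called.

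CRIP2 was at 68.8 to 161 CPM in 10y-noCHF dogs (median 104 CPM) and at 71.9 to 207 CPM in 10y-MMVD-CHF dogs (median 87.9 CPM). The groups overlapped, and the highest dog of all was CAV1047. CRIP2 had a log2 fold change of -0.09 (SE 0.124), which was -0.20 (SE 0.108) without CAV1047 and CAV614. CRIP3 had few counts, from 4 to 143 per dog. Its level was 0.0901 to 1.76 CPM in 10y-noCHF dogs (median 0.931 CPM) and 0.110 to 1.16 CPM in 10y-MMVD-CHF dogs (median 0.666 CPM), with overlapping groups and a log2 fold change of -0.60 (SE 0.322).

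Of the CSRP genes, CSRP1 had nearly the same level in both groups, at 421 to 1002 CPM in 10y-noCHF dogs (median 600 CPM) and 365 to 957 CPM in 10y-MMVD-CHF dogs (median 616 CPM). CSRP2 was at 10.2 to 24.1 CPM (median 15.6 CPM) and 7.11 to 29.99 CPM (median 14.9 CPM), respectively. Their log2 fold changes were -0.05 (SE 0.125) and 0.05 (SE 0.152), and the approximate 95% intervals were -0.29 to 0.20 for CSRP1 and -0.25 to 0.34 for CSRP2. CSRP3 varied far more than the others. It ranged from 0.0516 CPM (4 counts in CAV749) to 771 CPM in 10y-noCHF dogs, with a median of 89.8 CPM, and from 0.954 CPM to 1300 CPM (50708 counts in CAV1047) in 10y-MMVD-CHF dogs, with a median of 119 CPM. The groups overlapped over most of their ranges. The log2 fold change of CSRP3 was 0.20 with an SE of 0.892. It was -0.61 without CAV1047 and -0.52 without CAV1047 and CAV614, but 0.50 without CAV285 and 1.14 (SE 1.15) by limma voom with sample weights.

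Of the FHL genes, FHL1 was at 463 to 979 CPM in 10y-noCHF dogs (median 769 CPM) and at 391 to 895 CPM in 10y-MMVD-CHF dogs (median 645 CPM). The groups overlapped, the median of the 10y-noCHF dogs exceeded 12 of 15 10y-MMVD-CHF dogs, and the log2 fold change was -0.12 (SE 0.104). FHL2 spread from 12.7 to 216 CPM (median 33.1 CPM) in 10y-noCHF dogs and from 17.9 to 303 CPM (median 35.6 CPM) in 10y-MMVD-CHF dogs. Its log2 fold change was 0.22 (SE 0.426), or -0.27 without CAV1047, -0.23 without CAV1047 and CAV614 and 0.445 without CAV285. FHL3 was at 32.2 to 66.3 CPM (median 47.5 CPM) and 30.4 to 73.0 CPM (median 45.96 CPM), and its log2 fold change was 0.02 (SE 0.105). FHL5 was barely detected, with at most 142 counts in a dog and 0 counts in 2 dogs, and its log2 fold change of -0.04 (SE 0.578) had an interval of -1.17 to 1.09. It was -0.57 without CAV1047, -0.58 without CAV1047 and CAV614, 0.22 without CAV865 and -0.34 with the cardiomyocyte marker mean in the fit.

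**Figure D1:**
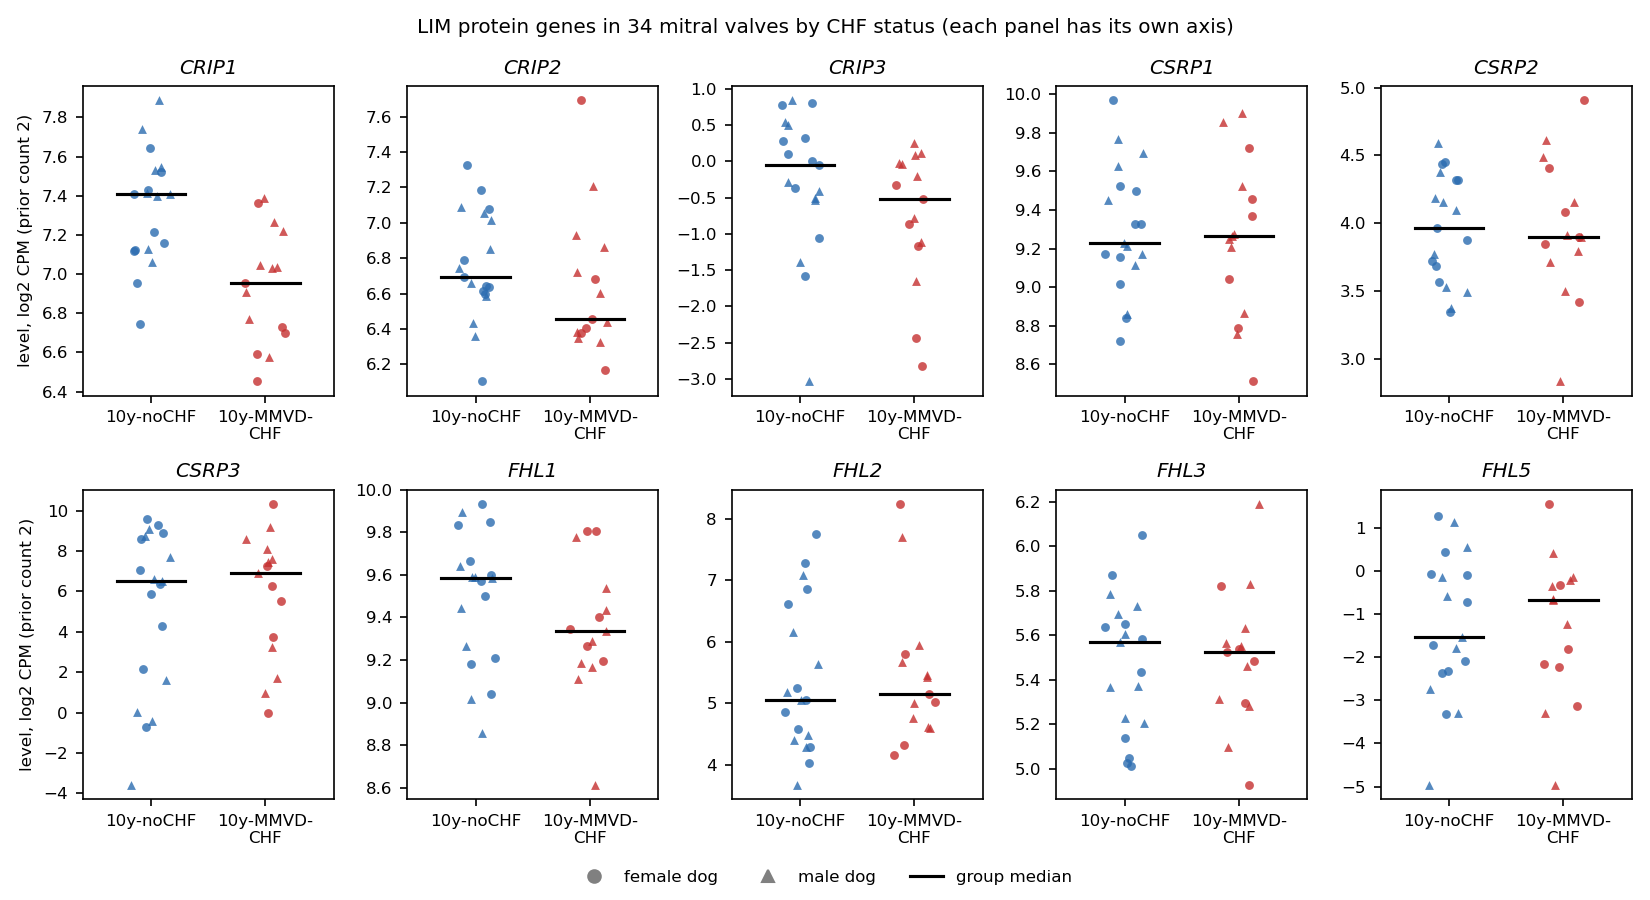
Level of each gene in log2 CPM (y axis, a separate scale per panel) in 10y-noCHF and 10y-MMVD-CHF dogs (x axis). Each point is a dog, circles are females, triangles are males and bars are group medians. The groups overlap for all 10 genes, and the CSRP3 panel spans the widest range.

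With edgeR's quasi-likelihood test and an FDR threshold of 0.1, 23 of 19568 features (0.118%) were called in the CHF contrast, and 1 of the 10 genes, CRIP1, was among the 18 features (0.092%) called lower. Since CRIP1 led to the choice of these genes, nothing is read from that count. The call for CRIP1 was lost in 16 of the 34 fits that left out a dog and was kept in 18, whereas its log2 fold change stayed between -0.49 and -0.40. When the cardiomyocyte marker mean was added to the fit, CRIP1 had a log2 fold change of -0.42 (SE 0.0909). The SE of CSRP3 fell by this from 0.892 to 0.163 and that of FHL2 from 0.426 to 0.222, and their log2 fold changes became 0.13 and -0.02.

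**Figure D2:**
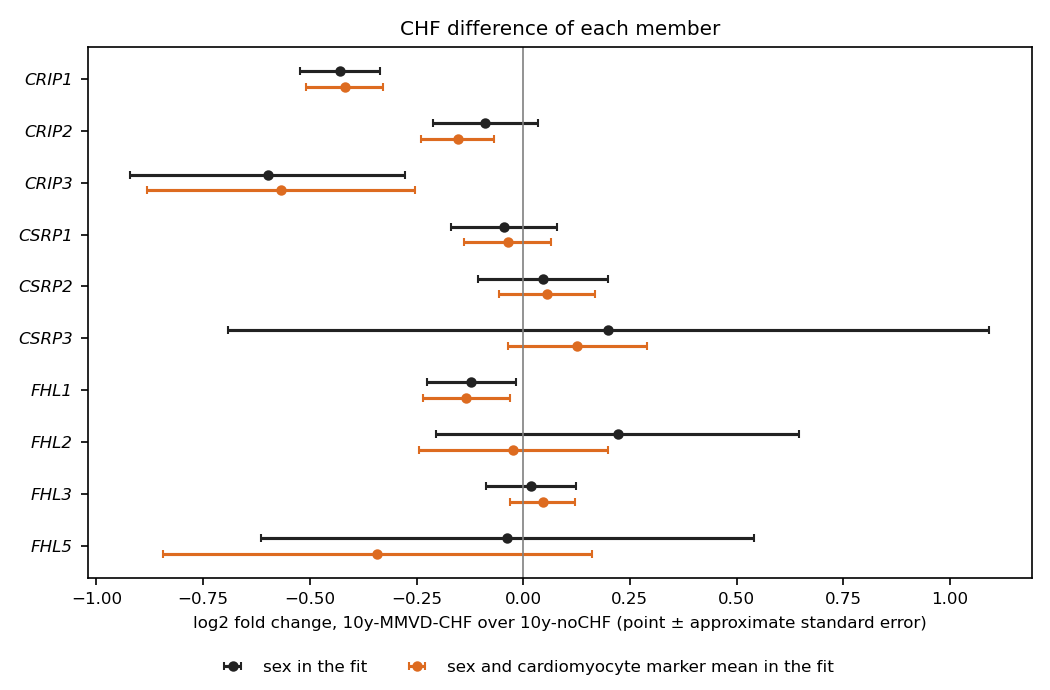
Log2 fold change of 10y-MMVD-CHF over 10y-noCHF dogs (x axis) for each gene (y axis), as point and approximate SE, without (black) and with (orange) the cardiomyocyte marker mean in the fit. The error bars of CSRP3 and FHL2 shorten with that mean, while CRIP1 stays at -0.43 and -0.42.

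Differences between the sexes had no part in the choice of the genes and were tested. None of the 10 genes was called, where 28 of 19568 features (0.143%) were called by edgeR. CRIP1 was 0.22 higher in males on the log2 scale (SE 0.092, 95% interval 0.04 to 0.40), with an unadjusted p under 0.05 but an FDR of 1.0 over all features. CSRP3 and FHL2 had male minus female differences of -0.62 (SE 0.889) and -0.61 (SE 0.425). The interval for FHL2 was -1.44 to 0.22. Without CAV1047 and CAV614 these differences were 0.19 for CSRP3 and -0.12 for FHL2, and with the cardiomyocyte marker mean in the fit they were -0.03 and -0.06.

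Whether the CHF difference of a gene differed between the sexes was tested with an interaction term. No feature was called by edgeR (0.0%), while 1178 features had an unadjusted p under 0.05 and DESeq2 called 3. None of the 10 genes was called by either tool, or had an unadjusted p under 0.05. The log2 fold change of CRIP3 was -1.22 (SE 0.449) in females alone and -0.12 (SE 0.409) in males alone, and the difference of 1.10 (SE 0.608) had an FDR of 0.83 by edgeR. Without CAV1047 and CAV614 the difference was 0.90 for CRIP3, and it moved from 0.28 to 2.64 (SE 1.84) for CSRP3, from 0.30 to 1.66 (SE 0.816) for FHL2 and from -0.16 to 1.14 (SE 1.2) for FHL5, none of them called.

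The heart muscle content of the samples was taken as a second measure. CSRP3 and FHL2 are known as heart muscle genes, so a rise of these with it describes tissue makeup and is no separate test. Over the 34 dogs, with sex and CHF in the fit, 4 of the 10 genes rose and 3 fell with the cardiomyocyte marker mean, where 19.3% of all features rose and 18.7% fell. None of the 10 genes is on the marker list. The slopes are in log2 units of the gene per log2 unit of the marker mean. CSRP3 had a slope of 1.19 (SE 0.0376, 95% interval 1.11 to 1.26, FDR 3.04e-24 by edgeR). FHL2 had a slope of 0.36 (SE 0.0375, FDR 1.54e-09) and FHL5 one of 0.29 (SE 0.082, FDR 0.00645). CRIP2 rose less steeply, with a slope of 0.09 (SE 0.0142, FDR 7.78e-06).

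The genes that fell as the markers rose were CSRP2 (slope -0.11, SE 0.0192, FDR 5.54e-05), FHL3 (slope -0.07, SE 0.0129, FDR 3e-05) and CSRP1 (slope -0.07, SE 0.0176, FDR 0.00144). CRIP1 (slope -0.02, 95% interval -0.05 to 0.01), CRIP3 (-0.09, -0.19 to 0.01) and FHL1 (0.02, -0.01 to 0.05) were not called. FHL1 is a striated muscle gene that, in these valves, was thus not shown to follow the heart muscle markers. The same 7 genes were called in each alternative fit of this slope, also without CAV1047 and CAV614.

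**Figure D3:**
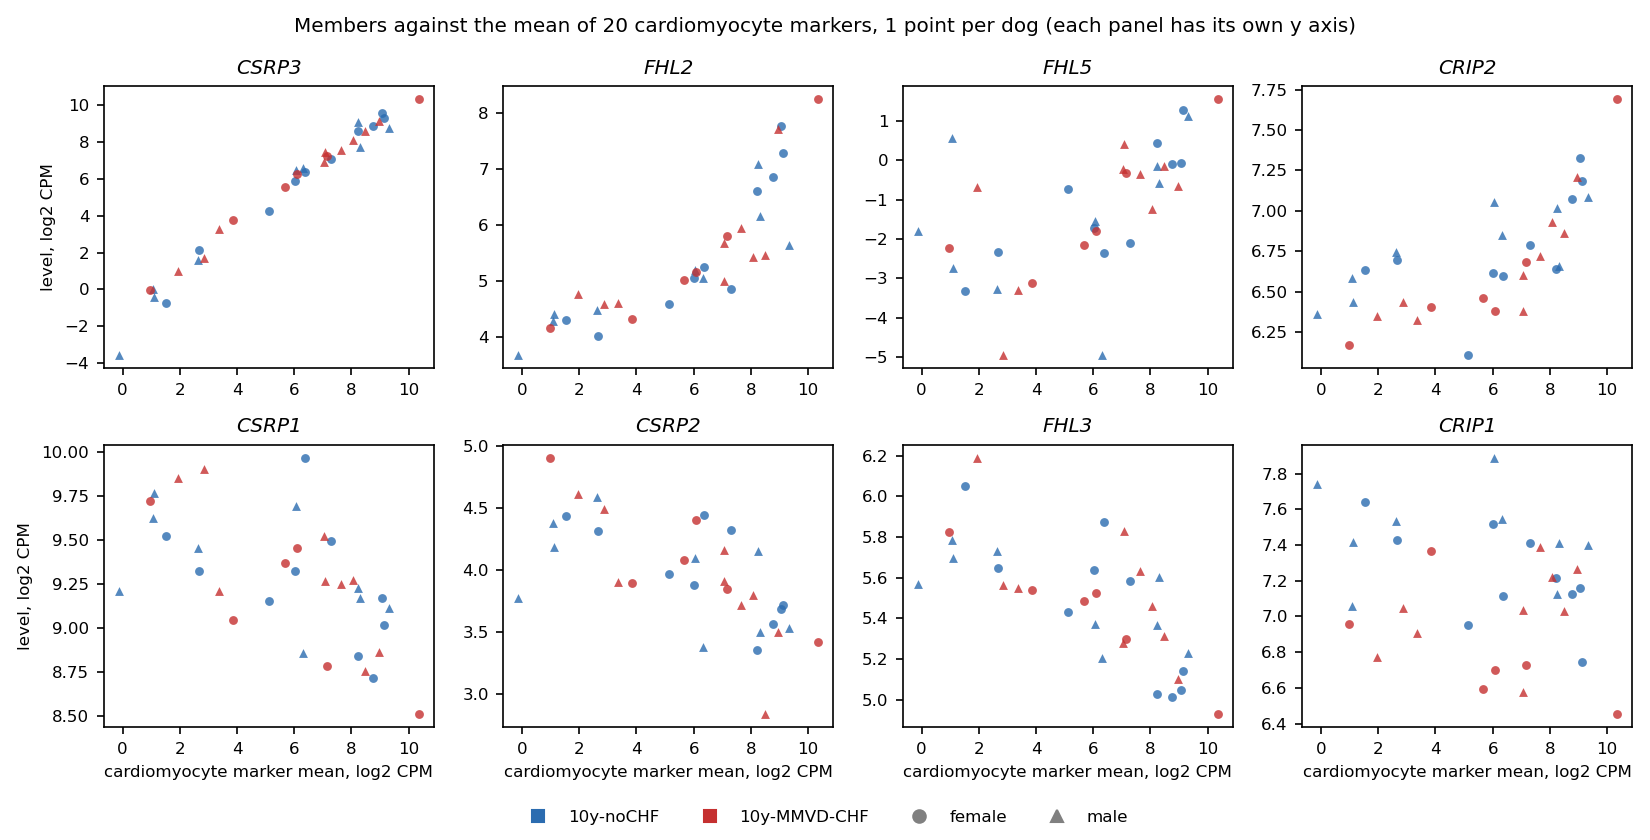
Level of 8 genes in log2 CPM (y axis, a separate scale per panel) against the mean log2 CPM of 20 cardiomyocyte markers (x axis), 1 point per dog, colour for CHF status and shape for sex. CSRP3 lies close to a line with both groups on it, and CSRP1, CSRP2 and FHL3 decline. CRIP1 shows red points mostly below blue points at low and middle marker means, and the colours mix at high ones.

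As a correlation after removal of CHF and sex means, CSRP3 and the cardiomyocyte marker mean had r = 0.989 and rho = 0.986 (permutation test within groups, p = 1e-05 for both, the smallest that 100000 resamples give, adjusted p = 0.000225 and 0.000113 over 90 relations). It was 0.987 within 10y-noCHF dogs, 0.996 within 10y-MMVD-CHF dogs. When the 2 dogs with marker means farthest from the median were left out, r was 0.99. FHL2 had r = 0.837 and rho = 0.924 (permutation p = 1e-05 for both, adjusted p = 0.000225 and 0.000113), and r was 0.817 without the 2 farthest dogs. In its panel FHL2 is nearly level at low marker means and climbs at high ones. CRIP2 had r = 0.725 and rho = 0.804 (permutation p = 2e-05 and 1e-05, adjusted p = 0.0003 and 0.000113), with r = 0.667 in 10y-noCHF and 0.811 in 10y-MMVD-CHF dogs and 0.687 without the 2 farthest. CRIP1 had r = -0.235 and rho = -0.231 (permutation p = 0.196 and 0.2, adjusted p = 0.335 and 0.327), and r was -0.157 without the 2 farthest dogs.

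The smooth muscle markers gave a different grouping. This slope was fitted after the data had been seen, with the cardiomyocyte marker mean also in the fit. Of the 10 smooth muscle markers, 8 fell and 1 rose with the cardiomyocyte marker mean (18.7% and 19.3% of features). CSRP1 and CSRP2 are known from smooth muscle, so a rise of these describes tissue makeup and is no separate test. CSRP1 rose with a slope of 0.55 (SE 0.0821, FDR 0.00017 by edgeR), CSRP2 with 0.46 (SE 0.118, FDR 0.0587) and FHL1 with 0.39 (SE 0.108, FDR 0.0919). These were 3 of the 10 genes, where 1.23% of all features were called. Without the cardiomyocyte marker mean, 2 of 10 genes were called (2.17% of features), CSRP1 with a slope of 0.65 (SE 0.0914, FDR 7.11e-05) and CSRP2 with 0.65 (SE 0.143, FDR 0.0198). CSRP1 had r = 0.779 and rho = 0.781 with the smooth muscle marker mean (permutation p = 1e-05 for both, adjusted p = 0.000225 and 0.000113), at 0.856 within 10y-noCHF and 0.72 within 10y-MMVD-CHF dogs and 0.748 without the 2 farthest dogs. CSRP2 had r = 0.624 and rho = 0.657 (permutation p = 0.00012 and 5e-05, adjusted p = 0.0009 and 0.0005), and r was 0.605 without the 2 farthest. FHL1 had r = 0.447 and rho = 0.471 (permutation p = 0.0121 and 0.00823, adjusted p = 0.0363 and 0.0285). It was 0.414 without the 2 farthest dogs, and was 0.68 in 10y-noCHF and 0.0513 in 10y-MMVD-CHF dogs, a difference that was not tested. Without CAV614 and CAV1047, r over the remaining dogs was 0.542. With the valve interstitial cell marker mean, r was 0.564 for CSRP1 and 0.618 for CSRP2. After removal of the cardiomyocyte marker mean these were 0.313 and 0.346, against 0.776 and 0.59 with the smooth muscle marker mean.

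**Figure D4:**
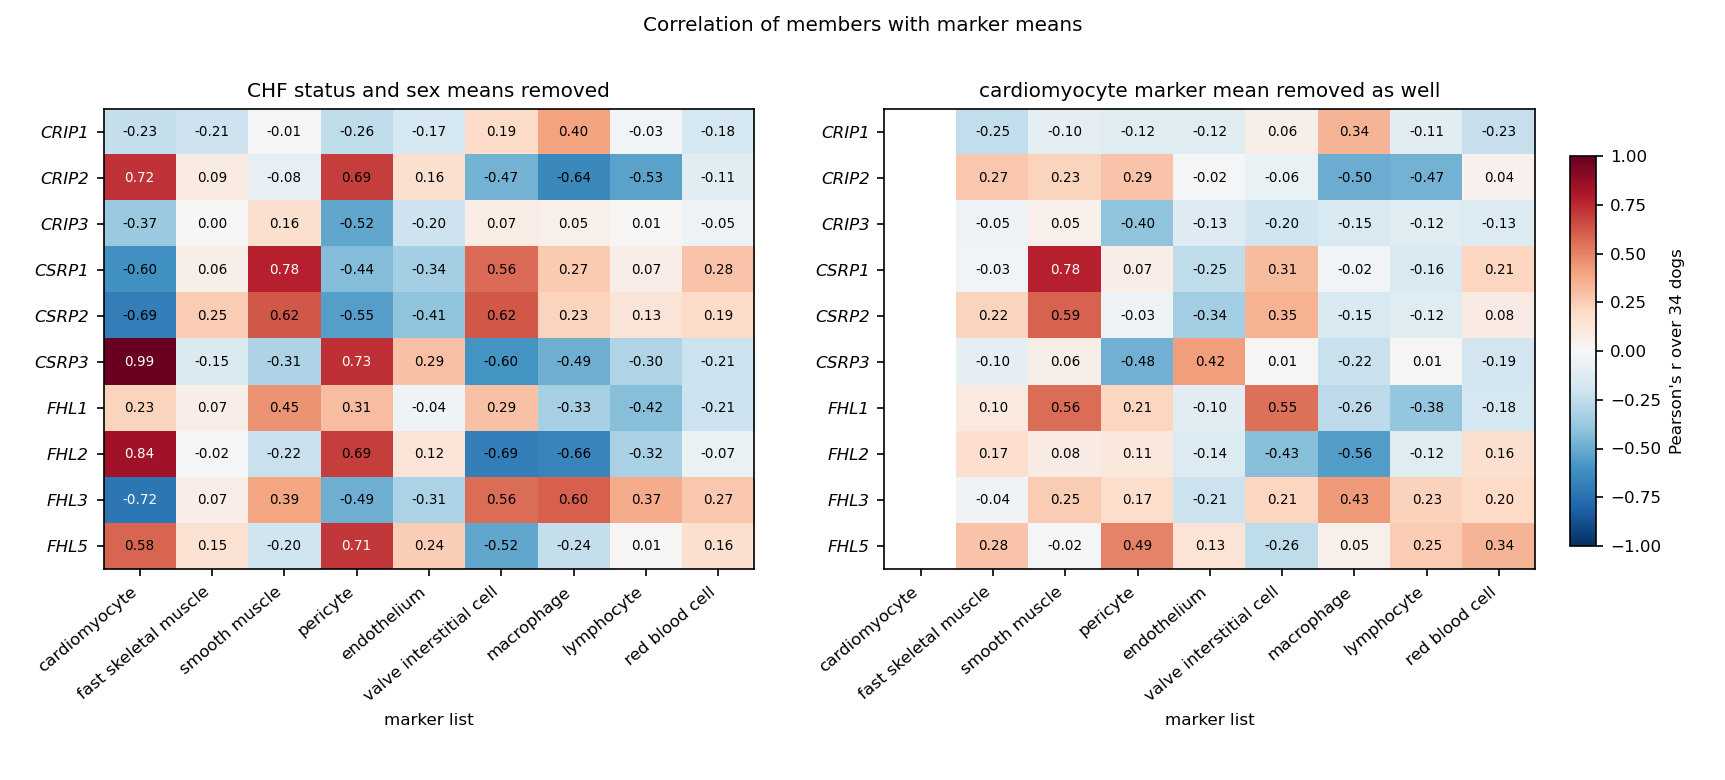
Pearson's r over 34 dogs between each gene (rows) and the mean of each marker list (columns), with CHF and sex means removed (left) and with the cardiomyocyte marker mean removed as well (right, where the cardiomyocyte column is empty). The 0.989 of CSRP3 is the highest value on the left, and CSRP1 has 0.78 with smooth muscle in both panels.

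The other marker lists were fitted in the same way, also after the data had been seen. With the cardiomyocyte marker mean in the fit, FHL1 rose with the valve interstitial cell markers (slope 0.63, SE 0.175, FDR 0.0245 by edgeR, against 0.25, SE 0.156 and FDR 0.242 without that mean) and FHL2 fell (slope -1.21, SE 0.411, FDR 0.073), which were 2 of 10 genes where 10.4% of features were called. With the macrophage markers, CRIP2 fell (slope -0.34, SE 0.103, FDR 0.035) and FHL2 fell (slope -1.01, SE 0.252, FDR 0.00978), again 2 of 10 where 12.2% of features were called. In both fits the cardiomyocyte marker mean entered as a straight line, which FHL2 does not follow. The part of this in the FHL2 slopes was not tested. The slope of CSRP3 on the pericyte markers turned with the fit. It was -0.90 (SE 0.246, FDR 0.0277 by edgeR) with the cardiomyocyte marker mean, where 10.8% of features were called, and 4.39 (SE 0.902, FDR 0.000306) without it. The pericyte list was itself mixed. Of its 7 genes, 2 rose with the cardiomyocyte marker mean, with slopes of up to 0.57, and 1 fell (19.3% and 18.7% of features). None of the 10 genes was called on the endothelium (1.01% of features), lymphocyte (2.71%), fast skeletal muscle (0.0%) and red blood cell (0.199%) lists. Without the cardiomyocyte marker mean, 8 of 10 genes were called with the pericyte markers (38.6% of features), 7 with the valve interstitial cell markers (34.3%) and 1, CRIP2, with the lymphocyte markers (4.01%). With the macrophage markers 6 of 10 genes were called without that mean (33.2% of features), and 4 of them fell. FHL3 rose (slope 0.44, SE 0.109, FDR 0.00335 by edgeR), as did CRIP1 (slope 0.25, SE 0.105, FDR 0.0734). With the cardiomyocyte marker mean in the fit, the slope was 0.25 (SE 0.0961, FDR 0.109) for FHL3 and 0.23 (SE 0.118, FDR 0.245) for CRIP1, neither called.

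Among themselves the 10 genes form 45 pairs, given as a description of dogs that share tissue makeup. Spearman's rho ran from -0.727 (CSRP3 and FHL3) to 0.932 (CSRP3 and FHL2), with 9 pairs above 0.5 and 9 below -0.5. CSRP1 and CSRP2 had a rho of 0.892, which was 0.789 after the cardiomyocyte marker mean was removed. The rho of CSRP3 and FHL2 was 0.0127 after that removal, and that of CRIP2 and CSRP3 went from 0.813 to -0.0631. CRIP2 and FHL2 went from 0.761 to 0.511, and CSRP2 and FHL3 from 0.769 to 0.556. The removal took out a straight line only, which FHL2 does not follow, being nearly level at low marker means. What a bent relation leaves in these values was not tested. The neighbours CRIP1 and CRIP2 had a rho of 0.038.

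**Figure D5:**
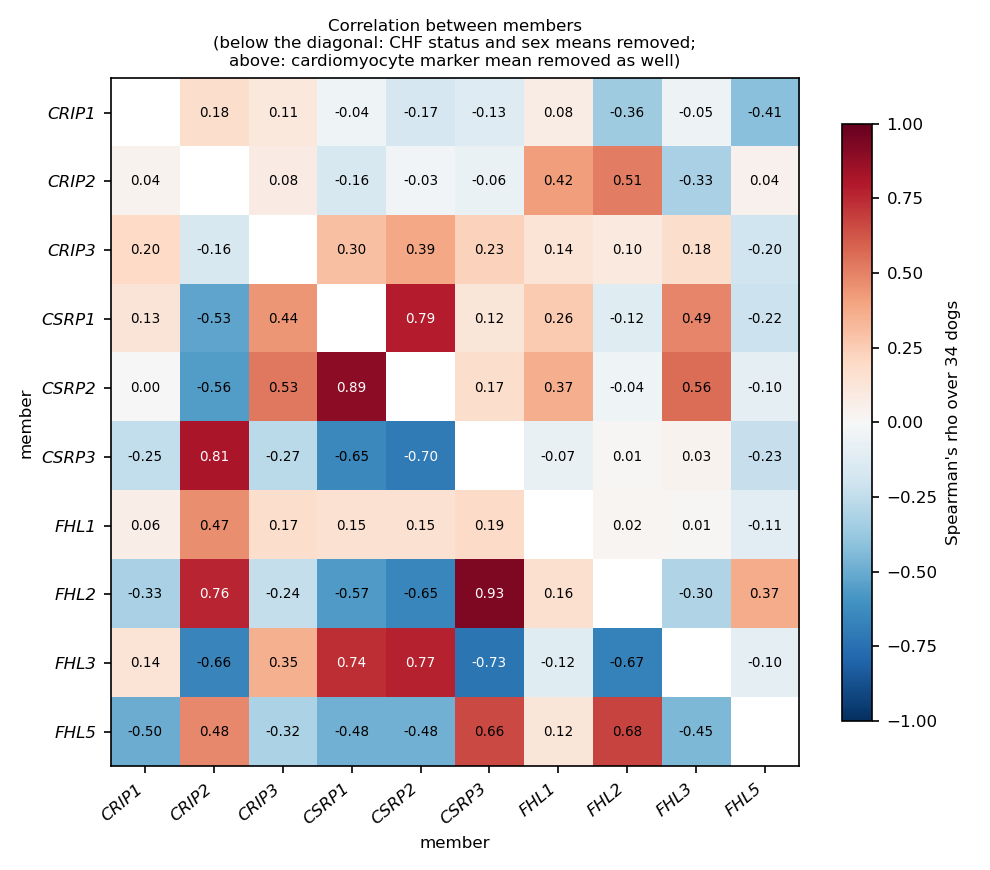
Spearman's rho over 34 dogs between each pair of genes, below the diagonal with CHF and sex means removed and above it with the cardiomyocyte marker mean removed as well. CSRP1 with CSRP2 has the highest value above the diagonal (0.892 below it and 0.789 above), and CSRP3 with FHL2 is high below the diagonal but near 0 above it (0.932 and 0.0127).

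The genes most like each of the 10 over the 34 dogs were listed by Spearman's rho after removal of CHF and sex means, among features with a mean of at least 1 CPM. For CRIP1 they were LMNA (0.705), TAGLN2 (0.656) and NGEF (0.645), and for CRIP2 the first was CERS4 (0.896). For CRIP3 they were HYI (0.803), ZNF414 (0.79) and GLI4 (0.764). CSRP1 was most like NOC2L and NOC2LP2 (both 0.91), a gene and its copy whose reads may be shared, and PCSK7 (0.886). CSRP2 was most like MAGEH1 (0.847), DDAH2 (0.843) and TAGLN3 (0.839). For CSRP3 they were CASQ2, ACTN2 and MYBPC3 (0.996 each), all of them on the cardiomyocyte list and known for calcium storage, the Z-disc and the thick filament. Leaving aside the overlapping LOC100128164, FHL1 was most like EFHD1 (0.792) and THRB (0.745). FHL2 was most like RNF207 (0.97), CTNNA2 (0.969) and MTUS2 (0.964), FHL3 like ATF6B (0.887), SSH3 (0.88) and GNAI2 (0.866), and FHL5 like EXPH5 (0.84), GGA2 (0.833) and CLYBL (0.809).

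Other LIM domain genes were set beside these 10, among them the PDLIM proteins of the Z-disc and actin stress fibres and the zyxin and paxillin families of focal adhesions. None of 31 was called in the CHF contrast by edgeR, where it called 0.118% of all features. DESeq2 called 1, where it called 0.327% of all features. By edgeR, 5 of the 31 had an unadjusted p under 0.05, against 1234 of 19568 features. The median log2 fold change of the 31 was -0.02, against 0.01 over all features. The lowest was PDLIM4 (-0.36, SE 0.104, FDR 0.369 by edgeR), and the highest were LDB3 (0.33, SE 0.839, FDR 0.972) and LIMCH1 (0.19, SE 0.111, FDR 0.838). The gene that DESeq2 called was PDLIM1 (log2 fold change -0.27 and SE 0.0635 by edgeR, FDR 0.135 by edgeR and 0.0201 by DESeq2). PDLIM1 is among the genes the study picked from these samples, so it is not independent evidence. On the cardiomyocyte marker mean, 10 of 31 rose and 9 fell, where 19.3% of all features rose and 18.7% fell. LDB3 had a slope of 1.08, but it is itself on the marker list. PDLIM5 had a slope of 0.27 (SE 0.0261, FDR 3.18e-10) and PDLIM2 one of -0.11 (SE 0.0248, FDR 0.000567). On the smooth muscle markers, with the cardiomyocyte mean in the fit, 4 of 31 rose, namely TGFB1I1 (slope 0.40), LPP (0.52), AJUBA (0.33) and PDLIM7 (0.32), and TES fell (-0.30), where 1.23% of all features were called.

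The 18 genes for partners of the LIM proteins included SRF, its coactivators, the actinins and titin. None was called in the CHF contrast by edgeR (0.118% of all features) or by DESeq2 (0.327%). By edgeR, 2 of the 18 had an unadjusted p under 0.05, against 1234 of 19568 features. TCAP, which anchors titin at the Z-disc, had the highest log2 fold change (0.37, SE 0.759), followed by MRTFB (0.29, SE 0.0853, FDR 0.395 by edgeR), a coactivator of SRF. The lowest were RBPJ (-0.17, SE 0.0907) and SPHK1 (-0.13, SE 0.0984). On the cardiomyocyte marker mean 5 of 18 rose and 4 fell, near the 19.3% and 18.7% of all features. ACTN2, TCAP and TTN rose but are markers themselves, as against SRF (slope 0.06, FDR 0.000193) and its coactivator MYOCD (slope 0.31, FDR 1.17e-07), which are not.

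Of 14 contractile genes driven by SRF, none was called in the CHF contrast by edgeR (0.118% of all features) or by DESeq2 (0.327%). By edgeR, 1 of the 14 had an unadjusted p under 0.05, against 1234 of 19568 features. The median log2 fold change of the 14 was -0.04. MYH11, the smooth muscle myosin, had -0.67 (SE 0.224, FDR 0.48 by edgeR) and ACTA2, smooth muscle actin, -0.38 (SE 0.241, FDR 0.848), while the intermediate filament gene DES had 0.35 (SE 0.63) and TPM1 0.20 (SE 0.369). On the cardiomyocyte marker mean 5 of 14 rose and 7 fell, where 19.3% of all features rose and 18.7% fell, with slopes of 0.65 for DES (FDR 6.71e-18) and -0.10 for CNN1 (FDR 0.0223). On the smooth muscle markers, with the cardiomyocyte mean in the fit, 9 of 14 rose, where 1.23% of all features were called. Several of them are on that marker list, so this count is in part set by the list.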

How the data were processed

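RNA from 34 mitral valves was sequenced as read pairs on poly(A)-selected libraries. The authors mapped reads with STAR to canFam4 and deposited raw counts made with featureCounts 2.0.3, whose recorded command counts each read on every overlapping feature, without strand. Groups and sexes follow the labels. Of the count columns, 1 belongs to no labelled sample and was not used. Each dog is a separate animal.

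The 19568 features that reached 100 counts over all dogs were tested in R 4.3.3 with the quasi-likelihood method of edgeR 4.0.16 after TMM normalization, with a term for sex and calls at an FDR below 0.1. CPM were scaled by TMM, log2 CPM used a prior count of 2, and SE were derived from the test statistic. Permutations were drawn separately in the 4 combinations of sex and CHF (two-sided). Alternatives were DESeq2 1.42.0, limma 3.58.1 voom, other normalizations and filters, covariates and leaving out dogs. The tests were tested on simulated data.

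The 10 genes and all lists were chosen with earlier results of these data known. Named are these 10 genes, the 3 genes most like each, and of each list the genes called in the CHF contrast and the 2 highest and 2 lowest there. A few genes picked in this way are left unreported. Other list genes, including PDLIM1 and all those given with a slope alone, were chosen after their values were seen.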

Additional observations from a re-analysis of the deposited data

Results flagged for a closer look

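Each of the 10 genes was examined in each of the 4 groups of CHF status and sex for a dog far from its group. The measure was the gap to the nearest dog over the range of the group, both taken in log2 CPM. Of these 40 tests chance alone would give about 2, since it flags about 1 in 20, and 2 were found. CRIP2 was highest in CAV1047 among the 6 10y-MMVD-CHF females, with a gap of 0.664 of the range (207.1 CPM against 102.6 CPM in CAV1876). CAV1047 also had the highest cardiomyocyte marker mean, 10.345 log2 CPM. FHL2 was highest in CAV373 among the 9 10y-MMVD-CHF males, with a gap of 0.566 of the range (208.2 CPM against 61.31 CPM in CAV1784), and the cardiomyocyte marker mean of CAV373 was 8.955 log2 CPM. The part of heart muscle content in either value was not tested.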

How the results depend on the processing

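The CHF contrast called 23 features with edgeR, 64 with DESeq2, 13 with no sex term, 9 at an FDR threshold of 0.05, 0 in females alone and 0 in males alone (2014 and 671 features with an unadjusted p under 0.05, edgeR), and 8 (without CAV1519 or CAV2102) to 28 (without CAV743) when 1 dog was left out. CRIP1 was the 1 gene of the 10 called. By edgeR, 0 were called with no sex term, without CAV614 and CAV1047, in females alone and in males alone. Leaving out 1 dog gave 0 to 1. Since CRIP1 led to the choice of these genes, nothing is read from these counts. The call was lost without CAV1047, CAV1097, CAV1259, CAV1519, CAV1876, CAV2102, CAV2156, CAV614 or CAV648 of the 10y-MMVD-CHF group and without CAV444, CAV447, CAV488, CAV494, CAV579, CAV749 or CAV901 of the 10y-noCHF group. Of other LIM domain genes, 1 was called with DESeq2 (PDLIM1), and 1 with the cardiomyocyte marker mean, voom or upper-quartile normalization. When 1 dog was left out, 0 to 1 were called (1 without CAV1047 or CAV743). The interaction called 3 features with DESeq2.

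With the cardiomyocyte marker mean in the fit, the smooth muscle slope called 240 features, the valve interstitial cell slope 2042 features and 2 of the 10 genes, the macrophage slope 2383 features and 2 of the 10 genes, and the pericyte slope 2116 features and 1 of the 10 genes. Pericyte slopes that had been called without that mean turned to -0.90 (CSRP3, called, from 4.39), 0.0548 (CSRP1, from -0.33) and 0.13 (FHL3, from -0.31). The following values also turned sign, for genes called in neither fit. Male minus female differences became 0.0458 (CRIP2) and 0.47 (FHL5) with the cardiomyocyte marker mean, and 0.0932 (CRIP2), 0.19 (CSRP3), -0.0048 (FHL3) and 0.32 (FHL5) without CAV614 and CAV1047. Without these dogs the interaction became 0.31 (CRIP2), -0.0954 (CSRP1), 0.0535 (FHL1), -0.0931 (FHL3) and 1.14 (FHL5). With the cardiomyocyte marker mean, slopes became 0.13 (CRIP2), 0.25 (FHL2) and 0.0592 (FHL5) on smooth muscle, -0.35 (CRIP3) on valve interstitial cell, and -0.0257 (CSRP1) and -0.12 (CSRP2) on macrophage markers. The cause of these changes was not tested.

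The 7 genes called on the cardiomyocyte marker mean were the same in every alternative run. The alternative that takes the human feature in place of the canine one could not be run, since the 10 genes have human features only. No paired analysis was possible because the labels name single dogs with no number shared between groups. Depth limits CRIP3 and FHL5, with at most 143 and 142 counts in a dog.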
